A study of Mus musculus with 49 samples.

Results

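Tumours of mice given an antibody against PD-1 alone were compared with tumours of mice given vehicle. All tumours labelled with either treatment entered, whatever their response label, which makes 26 of the 49 libraries in the series. The 17 anti-PD-1 tumours came from BALB/c mice that received 200 µg of the antibody per dose in 2 doses. The 9 vehicle tumours came from BALB/c mice that received the drug solvent, a mixture of DMSO, polyethylene glycol and water, every day. Both groups carried CT26 tumours, a transplanted mouse colorectal carcinoma line. Treatment began on day 7 after the tumour cells were injected and lasted 7 days. The labels name no control antibody for the vehicle mice and do not say whether anti-PD-1 mice also received the solvent.

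The series also holds 16 tumours treated with anti-PD-1 plus celecoxib, which blocks COX-2, an enzyme of prostaglandin synthesis, and 7 treated with celecoxib alone at 30 mg/kg. Its design addresses whether anti-inflammatory drugs change the tumour response to checkpoint blockade, and the anti-PD-1 and vehicle arms give the antibody's own difference. The labels give R to 4 anti-PD-1 tumours and NR to the other 13, and NR to all 9 vehicle tumours, without defining either word. RNA of whole tumours was read at the 3′ ends of transcripts. The day of collection is given as day 7 of treatment in the tissue label and as day 4 in the extraction protocol. The labels give no hour of collection. They do not say that each tumour came from its own animal, and the p-values reflect the spread among the tumours as sampled.

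PD-1 is an inhibitory receptor on activated T cells, and antibodies that block it release T cell activity against tumours. The circadian clock is a feedback loop present in most mouse cells. BMAL1 (gene Arntl) and CLOCK drive the period, cryptochrome and REV-ERB genes and, through E-boxes, the output factor Dbp, and the products of the period, cryptochrome and REV-ERB genes in turn repress BMAL1, CLOCK or their activity. Transcripts of Dbp and of the period genes therefore peak in another part of the day than Arntl. Glucocorticoids, adrenal hormones with a daily rhythm of their own, induce Fkbp5, Tsc22d3 and Per1 in many tissues.

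Of 13726 genes tested, 2 were higher and 10 lower in anti-PD-1 than in vehicle tumours at an adjusted p under 0.05 (edgeR quasi-likelihood test, Benjamini-Hochberg), which is 0.0874% of the genes, 0.0146% higher and 0.0729% lower. Clock genes were 7 of these 12: Dbp, Tef, Per2, Per3, Cry2 and Nr1d2 fell and Arntl rose. The others were the glucocorticoid-induced Fkbp5 and Tsc22d3, and Foxred2 and Clca3a1, which fell, and Spon2, which rose. An unadjusted p under 0.05 was reached by 478 genes (3.48%), 259 of them higher. The median log2 difference over all tested genes was 0.01, and 51.9% of the genes were positive. In bulk RNA, fewer cells of a type and less RNA per cell cannot be told apart.

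Total counts ranged from 5954410 to 13671294 in anti-PD-1 libraries and from 4586727 to 13206697 in vehicle libraries. The tumour cell label was checked on a list of CT26 genes, of which 11 of 14 were tested. The mean level of the list was 3.28 to 4.95 log2 CPM (CPM are counts scaled to the library size) in anti-PD-1 and 3.08 to 5.22 in vehicle tumours. The 5.22 came from vehicle replicate 6, and the next vehicle tumour had 4.68. Without replicate 6 the median log2 difference of the list turned from -0.19 to 0.49. That replicate also had the highest vehicle mean of the skin epithelium list, so this level does not measure tumour cells alone. Some libraries also held tissue from around the tumour. Skeletal muscle transcripts were high in anti-PD-1 replicates 3, 9, 14, 15 and 16, and adipocyte transcripts in vehicle replicate 6, and the call count was 11 without these libraries and the others of that kind.

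The promoters of the called genes were searched for short elements through which clock factors act. RefSeq promoters on GRCm38.p6, from 250 bases before to 50 bases after a transcript start, were found for 10 of the 12 genes; Per2 and Spon2 were not matched. Both strands were searched for the E-box CACGTG, the D-box TTANGTAA and the AGGTCA core of the ROR element. The E-box was in 7.15%, the D-box in 2.32% and the AGGTCA core in 16.3% of 32851 mouse promoters. Among the 10 genes, 3 held an E-box, 1 a D-box and 2 the AGGTCA core in these windows. A gene counted if any of its starts matched, and Tef, Arntl and Tsc22d3 had several. The shares above are per single promoter, so the gene counts cannot be set directly against them. A match describes letters, not a site in use, and no match says only that these letters are not in this window.

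The promoters are shown 5′ to 3′ on the strand of the gene, with the matches in capitals, because they include the gene with the smallest adjusted p and each called gene with a match. Those of Dbp (chr7:45704997-45705296, plus strand), Per3 (chr4:151044616-151044915, minus strand) and Tef (plus strand, first start chr15:81802423-81802722, second start chr15:81811164-81811463) belong to genes that fell. The same holds for Nr1d2 (chr14:18239057-18239356), Fkbp5 (chr17:28486100-28486399) and Foxred2 (chr15:77956673-77956972), all on the minus strand. Arntl (second start, chr7:113207261-113207560, plus strand) rose.
Dbp: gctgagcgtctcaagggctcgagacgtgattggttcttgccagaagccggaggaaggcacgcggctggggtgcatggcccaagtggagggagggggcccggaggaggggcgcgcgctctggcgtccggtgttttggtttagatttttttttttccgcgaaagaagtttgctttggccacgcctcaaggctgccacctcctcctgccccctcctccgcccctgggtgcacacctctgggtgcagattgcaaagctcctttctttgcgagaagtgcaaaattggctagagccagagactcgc
Per3: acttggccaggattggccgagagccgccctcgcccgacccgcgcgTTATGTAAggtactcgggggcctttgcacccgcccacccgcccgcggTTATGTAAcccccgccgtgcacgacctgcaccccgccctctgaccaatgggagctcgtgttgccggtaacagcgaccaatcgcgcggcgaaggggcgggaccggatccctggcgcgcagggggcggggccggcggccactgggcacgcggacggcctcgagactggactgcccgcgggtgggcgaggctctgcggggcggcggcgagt
Tef, first start: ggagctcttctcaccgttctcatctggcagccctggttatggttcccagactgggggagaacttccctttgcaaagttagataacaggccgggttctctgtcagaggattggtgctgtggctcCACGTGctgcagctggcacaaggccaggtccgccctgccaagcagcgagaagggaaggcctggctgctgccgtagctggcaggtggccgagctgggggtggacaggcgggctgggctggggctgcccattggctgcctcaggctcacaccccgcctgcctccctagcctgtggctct
Tef, second start: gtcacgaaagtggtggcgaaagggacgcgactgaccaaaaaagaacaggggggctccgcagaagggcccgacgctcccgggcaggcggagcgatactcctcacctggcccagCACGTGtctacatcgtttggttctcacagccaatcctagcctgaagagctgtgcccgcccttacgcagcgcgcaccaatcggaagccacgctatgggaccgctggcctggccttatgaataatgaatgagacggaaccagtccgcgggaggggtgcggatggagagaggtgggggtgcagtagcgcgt
Nr1d2: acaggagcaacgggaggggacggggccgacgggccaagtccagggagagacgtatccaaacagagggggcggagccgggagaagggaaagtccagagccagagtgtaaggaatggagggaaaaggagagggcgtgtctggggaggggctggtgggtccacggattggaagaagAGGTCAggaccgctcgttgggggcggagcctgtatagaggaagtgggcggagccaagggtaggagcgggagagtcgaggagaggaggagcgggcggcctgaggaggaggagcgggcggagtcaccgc
Fkbp5: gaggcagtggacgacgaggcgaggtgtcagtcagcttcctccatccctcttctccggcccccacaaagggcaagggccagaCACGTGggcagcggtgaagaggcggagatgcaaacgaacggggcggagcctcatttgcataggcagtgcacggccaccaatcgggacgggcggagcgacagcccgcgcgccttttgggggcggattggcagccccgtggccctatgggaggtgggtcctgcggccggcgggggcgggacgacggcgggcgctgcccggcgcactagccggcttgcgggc
Foxred2: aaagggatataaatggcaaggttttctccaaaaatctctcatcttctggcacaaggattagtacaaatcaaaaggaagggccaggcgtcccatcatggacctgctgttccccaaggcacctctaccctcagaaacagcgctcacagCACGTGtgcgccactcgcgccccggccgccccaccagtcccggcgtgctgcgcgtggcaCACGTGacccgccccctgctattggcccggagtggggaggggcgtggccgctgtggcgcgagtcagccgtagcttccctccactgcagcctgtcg
Arntl, second start: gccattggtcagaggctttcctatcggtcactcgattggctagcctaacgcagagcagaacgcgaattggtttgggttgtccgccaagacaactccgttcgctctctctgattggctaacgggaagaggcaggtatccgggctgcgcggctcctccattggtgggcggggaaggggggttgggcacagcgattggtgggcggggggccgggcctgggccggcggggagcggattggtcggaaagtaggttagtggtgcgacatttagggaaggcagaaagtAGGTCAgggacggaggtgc
Per3 held D-boxes beginning 205 and 158 bases before its start. Tef held an E-box at each start, 127 and 138 bases upstream. Foxred2 held E-boxes 104 and 45 bases upstream, and Fkbp5 held one 169 bases upstream. The AGGTCA core lay 77 bases upstream of the Nr1d2 start and at base 32 after the second Arntl start. Windows of the other called genes, Dbp included, held none of the searched letters.

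Among the clock outputs, Dbp (ENSMUSG00000059824, chr7:45705088-45710203 on GRCm38), a transcription factor that binds D-boxes, separated the groups completely. It measured 4.75 CPM in the lowest, 12.4 in the median and 50.8 in the highest anti-PD-1 tumour, against 62.1, 85.3 and 215.0 CPM in the lowest, median and highest vehicle tumour. All 17 anti-PD-1 tumours lay below the lowest vehicle tumour. The log2 difference was -2.60 (SE 0.30, adjusted p 2.13e-07, edgeR). Anti-PD-1 replicate 14 was the highest of its group and replicate 2 the lowest, and vehicle replicate 8 stood above the other vehicle tumours, the next of which had 116.5 CPM.

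Tef (chr15:81802421-81826863), a relative of Dbp that binds the same D-box, ranged from 23.6 to 84.4 CPM (median 39.9) in anti-PD-1 tumours and from 89.1 to 235.6 CPM (median 130.6) in vehicle tumours, again without overlap. Its log2 difference was -1.64 (SE 0.20, adjusted p 6.42e-07). Hlf, the remaining member of this family, was scarce. It measured 0 to 3.29 CPM (median 1.42) in anti-PD-1 tumours and 0.771 to 9.95 CPM (median 3.21) in vehicle tumours, with a log2 difference of -1.13 (SE 0.41, unadjusted p 0.00813) that did not pass the adjustment (adjusted p 0.9998). Nfil3, which represses through the D-box and opposes Dbp, differed by 0.74 (SE 0.25, adjusted p 0.924), with 13 of 17 anti-PD-1 tumours above the vehicle median.

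**Figure D1:**
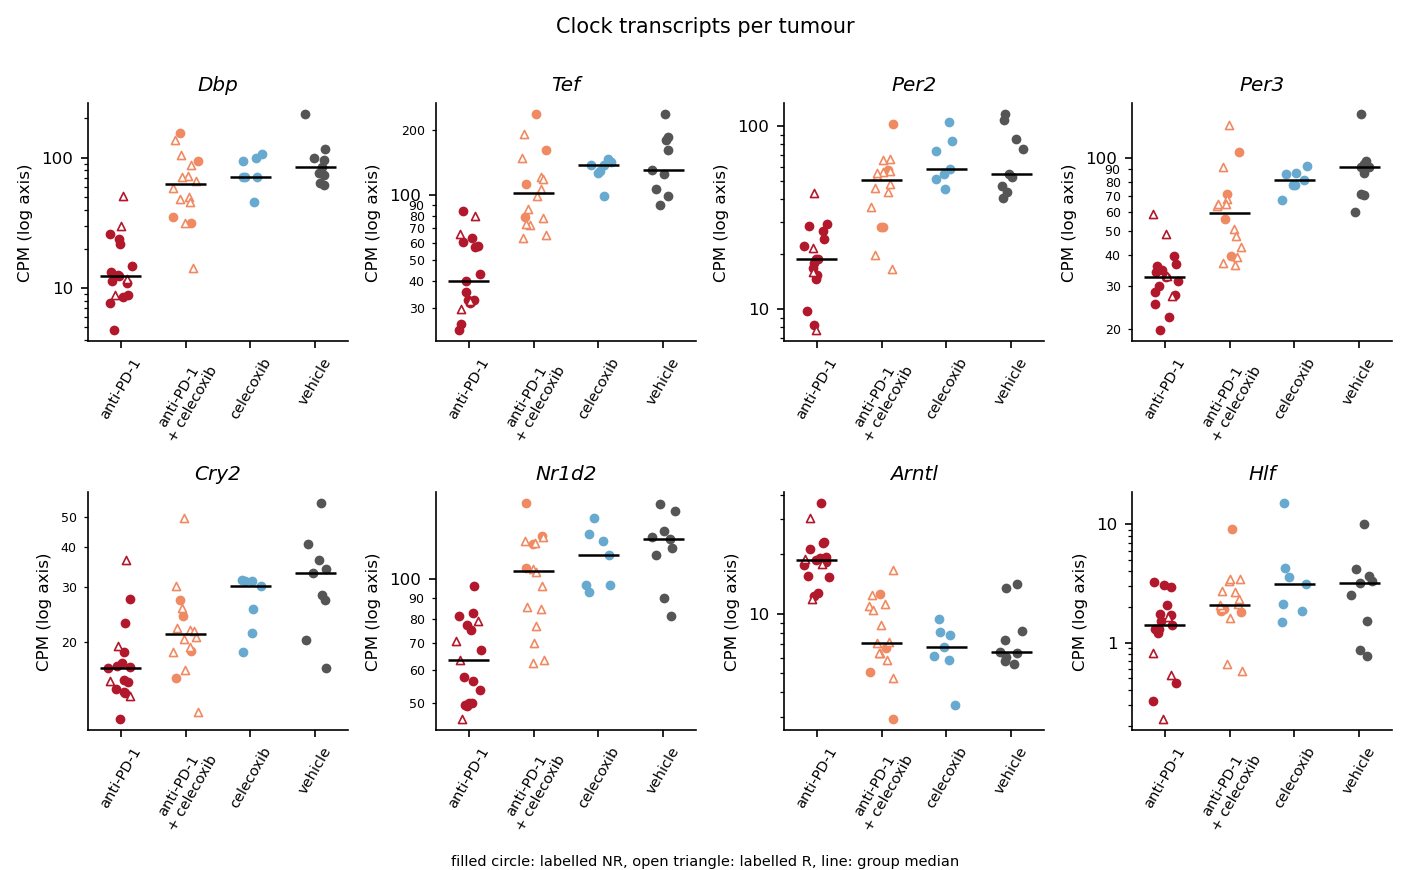
CPM of 8 clock transcripts in every tumour, on log axes; groups stand left to right as anti-PD-1, anti-PD-1 plus celecoxib, celecoxib and vehicle, with group medians as lines, and an Hlf value of 0 in 1 anti-PD-1 tumour is drawn at the bottom of its panel. All 17 anti-PD-1 tumours lie below every vehicle tumour for Dbp, Tef and Per3, and 14 of 17 lie above every vehicle tumour for Arntl.

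Among the repressors, Per3 (chr4:151003652-151044665) had no overlap either, with 19.7 to 58.7 CPM (median 32.6) in anti-PD-1 tumours and 60.2 to 151.3 CPM (median 91.6) in vehicle tumours, a log2 difference of -1.45 (SE 0.17, adjusted p 2.25e-07). Dbp, Per3 and Tef were the 3 genes of 13726 whose log2 CPM did not overlap between the groups, a share of 0.0219%. Per2 (chr1:91415982-91459324), a period protein of the repressor complex, measured 7.68 to 43.1 CPM (median 18.8) in anti-PD-1 tumours and 40.7 to 116.6 CPM (median 54.9) in vehicle tumours. It differed by -1.79 (SE 0.24, adjusted p 2.48e-06), and 16 of 17 anti-PD-1 tumours were below the lowest vehicle tumour. Per1, the period gene that also answers to glucocorticoids, differed by -1.11 (SE 0.28) and did not pass (adjusted p 0.124), with 3.77 to 57.5 CPM in anti-PD-1 and 12.9 to 81.4 CPM in vehicle tumours.

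Both cryptochromes, strong repressors of BMAL1 and CLOCK, had negative differences. Cry2 (chr2:92403646-92434043) measured 11.3 to 36.6 CPM (median 16.5) in anti-PD-1 tumours and 16.5 to 55.3 CPM (median 33.2) in vehicle tumours, with 8 of 17 anti-PD-1 tumours below all vehicle tumours. Its log2 difference of -0.86 (SE 0.18, adjusted p 0.0153) was called in 24 of 26 fits that each left out 1 library; the adjusted p was 0.0875 without vehicle replicate 6, 0.141 without vehicle replicate 8 and 0.0587 when the 26 libraries were fitted alone. Cry1 had 5.08 to 20.98 CPM in anti-PD-1 and 13.9 to 37.3 CPM in vehicle tumours, and its -0.84 (SE 0.20, adjusted p 0.0890) did not pass.

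Nr1d2 (chr14:18204054-18239127), which encodes REV-ERBβ, a nuclear receptor that represses Arntl, ranged from 45.5 to 96.4 CPM (median 63.5) in anti-PD-1 tumours and from 81.6 to 153.2 CPM (median 125.4) in vehicle tumours. It differed by -0.90 (SE 0.13, adjusted p 3.75e-05), with 15 of 17 anti-PD-1 tumours below the lowest vehicle tumour. Its relative Nr1d1, for REV-ERBα, overlapped more, at 10.5 to 67.7 CPM in anti-PD-1 and 18.3 to 93.6 CPM in vehicle tumours, and its -0.68 (SE 0.27) did not pass. Other repressors that did not pass were Ciart at -0.78 (SE 0.42), Bhlhe41 at -0.57 (SE 0.23) and Bhlhe40 at -0.34 (SE 0.39). In the list of 10 repressors, all were tested, 0 had a positive difference, 4 fell and the median was -0.85.

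On the activating side, Arntl (chr7:113207465-113314126) was the clock gene that rose. It had 11.8 to 36.2 CPM (median 18.6) in anti-PD-1 tumours and 5.55 to 14.1 CPM (median 6.43) in vehicle tumours, with 14 of 17 anti-PD-1 tumours above the highest vehicle tumour. The log2 difference was 1.26 (SE 0.22, adjusted p 0.00112). Its partner Clock differed by 0.44 (SE 0.19, unadjusted p 0.0283, not called), and Rora, whose product activates Arntl through the ROR element, by 0.08 (SE 0.26). Over the 3 clock lists, 17 of 20 fixed genes were tested, 7 of these were called (41.2%, against 0.0874% of all genes) and 13 were negative, with a median of -0.84. The clock lists were drawn up with earlier results of these tumours known, so these counts describe them and are not independent evidence.

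Genes that clocks are known to drive in other tissues were less even. Of 15 fixed clock-linked outputs, 13 were tested, 0 were called and the median was -0.07. The mitotic inhibitor kinase Wee1 had 1.15 to 4.03 CPM in anti-PD-1 and 2.67 to 8.07 CPM in vehicle tumours, a difference of -0.9995 (SE 0.23, adjusted p 0.0701). Leo1, a subunit of the PAF1 transcription complex, differed by 0.46 (SE 0.12), and Tspan4, a tetraspanin gene, by -0.48 (SE 0.15), neither past the threshold. The cold-inducible RNA-binding protein gene Cirbp, which came up among the genes next in order of p, differed by -0.52 (SE 0.13, adjusted p 0.120).

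Of the clock genes that fell, Per3, Tef, Per2 and Nr1d2 also followed Dbp from tumour to tumour within the anti-PD-1 group. Pairs without Dbp were not examined. Over the 26 tumours the genes with the highest correlation of log2 CPM with Dbp were Per3 (Pearson r 0.956), Tef (0.926), Per2 (0.905), Nr1d2 (0.859) and Cry2 (0.793), and the most negative were Bend4 (-0.742), Spon2 (-0.732), Btaf1 (-0.730), Rsad2 (-0.718) and Ggt5 (-0.693). These 26 values hold the difference between the groups and share library depth and composition. Within the 17 anti-PD-1 tumours alone, Dbp was set against each of the other 11 called genes. Per3 gave r 0.835 and rho 0.701 (permutation, adjusted p 0.00066 and 0.00884 over the 11 relations), Tef r 0.764 and rho 0.699 (adjusted p 0.0016 and 0.00884), Per2 r 0.685 and rho 0.598 (adjusted p 0.00887 and 0.0358), and Nr1d2 r 0.649 and rho 0.738 (adjusted p 0.0118 and 0.00884). Without replicates 2 and 14, the tumours farthest from the median of Dbp, the 4 values of r were 0.651, 0.749, 0.471 and 0.701. Arntl showed no such relation with Dbp in these 17 tumours (r 0.07 and rho -0.17, permutation, adjusted p 0.779 and 0.695), and neither did Fkbp5 (r 0.107, rho 0.06, adjusted p 0.752 and 0.890) or Tsc22d3 (r -0.154, rho -0.223, adjusted p 0.677 and 0.607). For Cry2, r was 0.514 (adjusted p 0.0783), and 0.126 without the 2 tumours. The other 3 genes gave r -0.222 for Spon2, -0.298 for Foxred2 and -0.332 for Clca3a1, with adjusted p of 0.359 to 0.540.

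An antibody difference could also be read in the presence of celecoxib, as the combination minus celecoxib alone. Most combination tumours are labelled R and all celecoxib tumours NR, whereas most anti-PD-1 tumours are labelled NR. The comparisons without and with celecoxib therefore differ in response labels as well. Dbp averaged 68.9 CPM in combination tumours (n = 16) and 80.1 CPM in celecoxib tumours (n = 7), a log2 difference of -0.22 (SE 0.33, 95% interval -0.88 to 0.45). The difference between that value and the -2.60 without celecoxib was 2.38 (95% interval 1.44 to 3.31, unadjusted p 5.39e-06), which edgeR did not call over all genes (adjusted p 0.0739). Tef gave -0.21 with celecoxib, Per3 -0.35, Per2 -0.46, Nr1d2 -0.16, Cry2 -0.25 and Arntl 0.32, none of them called. The interaction estimates were 1.43 for Tef, 1.09 for Per3, 1.33 for Per2, 0.74 for Nr1d2 and -0.94 for Arntl. These genes and Dbp were chosen by their difference without celecoxib, which is part of the interaction. Their interaction estimates, intervals and unadjusted p may therefore overstate it and are not independent evidence. The interaction test called 0 of the 13726 genes, and 413 had a p under 0.05 before adjustment. DESeq2 called 2, Dbp and Tef, and limma-voom called 1, Dbp. Combination tumours spread widely, from 14.4 to 155.5 CPM of Dbp, and so reached into the range of both the anti-PD-1 and the vehicle tumours.

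**Figure D2:**
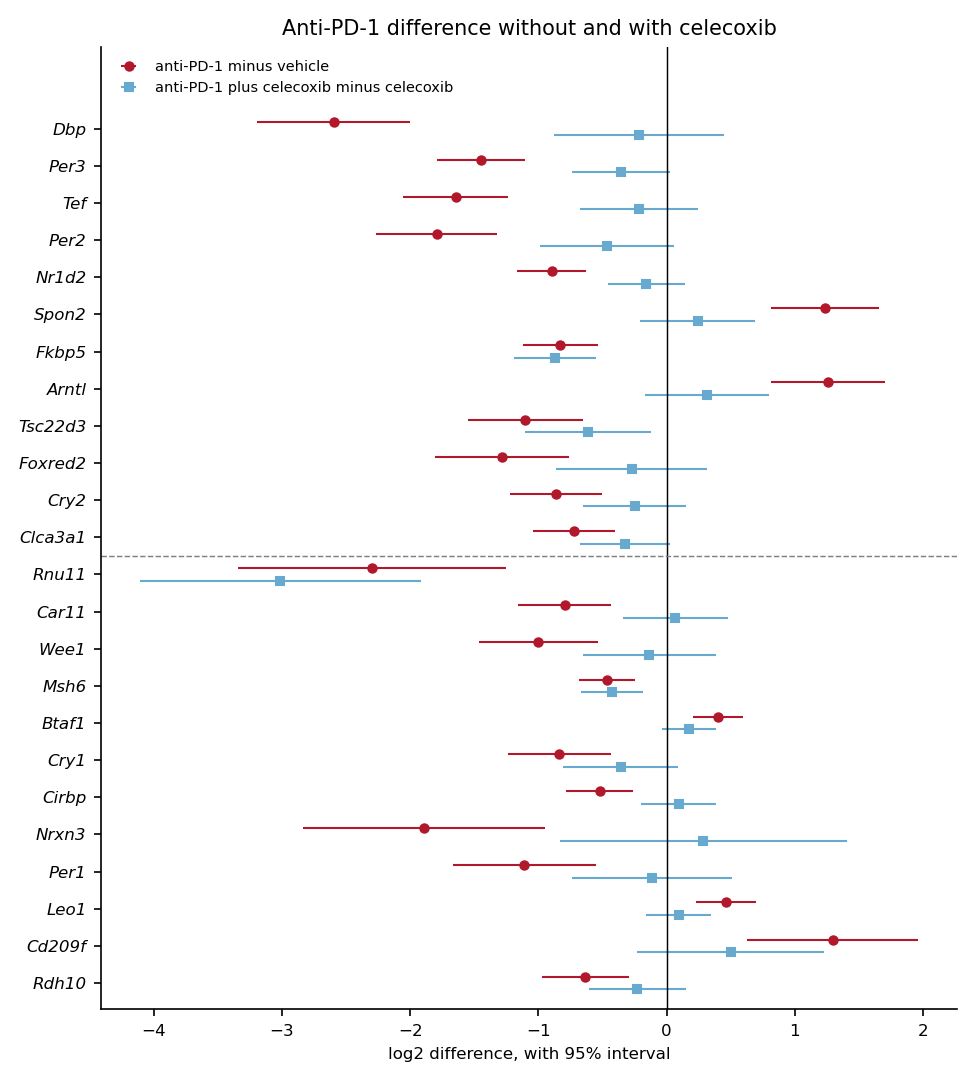
Log2 differences with 95% intervals for the 12 genes called between anti-PD-1 and vehicle (above the dashed line) and the 12 next by p that were not called; circles give anti-PD-1 minus vehicle and squares anti-PD-1 plus celecoxib minus celecoxib. Fkbp5 has nearly the same value in both (-0.83 and -0.87), whereas Dbp has -2.60 and -0.22.

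Fkbp5 had a similar difference without and with celecoxib. Fkbp5 (chr17:28399094-28517527), a co-chaperone that lowers the hormone affinity of the glucocorticoid receptor and is itself induced by that receptor, measured 53.8 to 107.3 CPM (median 74.9) in anti-PD-1 tumours and 77.8 to 250.8 CPM (median 117.1) in vehicle tumours. The log2 difference was -0.83 (SE 0.15, adjusted p 0.00112), with all 17 anti-PD-1 tumours below the vehicle median and 9 below the lowest vehicle tumour. In the presence of celecoxib Fkbp5 fell by 0.87 (SE 0.16, adjusted p 0.00824), at 75.1 CPM in combination and 137.2 CPM in celecoxib tumours. The interaction was -0.04 with a 95% interval of -0.48 to 0.41. The combination minus celecoxib comparison called 5 genes of 13726, all lower (0.0364%). Beside Fkbp5 they were Rnu11 and the skin genes Sbsn, Krt10 and Dsp, named because the count is small; celecoxib replicate 3 held skin transcripts.

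Tsc22d3 (chrX:140539528-140600659), which encodes the anti-inflammatory glucocorticoid-induced leucine zipper protein, ranged from 49.5 to 197.2 CPM (median 86.9) in anti-PD-1 tumours and from 59.5 to 346.9 CPM (median 209.7) in vehicle tumours. The ranges overlapped, but all 17 anti-PD-1 tumours were below the vehicle median. It fell by 1.10 (SE 0.22, adjusted p 0.0128), and the adjusted p was 0.0757 without vehicle replicate 3, 0.0749 without vehicle replicate 6, 0.0609 with limma-voom and 0.144 without the libraries holding other tissue. With celecoxib the difference was -0.61 (SE 0.25) and was not called. Zbtb16, a transcription factor gene strongly induced by glucocorticoids, had 0 to 1.47 CPM in anti-PD-1 and 0.257 to 29.6 CPM in vehicle tumours and differed by -2.82 (SE 0.67, adjusted p 0.0863). Its highest vehicle value came from the adipocyte-rich replicate 6.

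The rest of the glucocorticoid list was mixed. Of 24 fixed genes 20 were tested, 2 fell, where 0.0729% of all genes did, 15 were negative and the median was -0.51. The median became -0.33 without vehicle replicate 3, -0.16 with the R tumours alone and -0.27 without the libraries holding other tissue. An unadjusted p under 0.05 was reached by 7 negative members and 1 positive member. The kinase Sgk1 differed by -0.48 and the iron-binding protein gene Lcn2 by -0.99, whereas the lipase inhibitor gene Angptl4 differed by 0.56. The receptor gene itself, Nr3c1, differed by 0.04, and Klf9 by -0.21, none of the 5 called. Members of this list with a known clock link, such as Per1, are counted in both lists.

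Spon2 (chr5:33198184-33218455), the gene for the secreted matrix protein spondin 2 (mindin), rose. It measured 35.0 to 120.4 CPM (median 73.5) in anti-PD-1 tumours and 15.9 to 48.6 CPM (median 27.8) in vehicle tumours, with 14 of 17 anti-PD-1 tumours above the highest vehicle tumour and all 17 above the vehicle median. The log2 difference was 1.24 (SE 0.21, adjusted p 0.000704). With celecoxib it was 0.24 (SE 0.22), and the interaction of -0.997 had a 95% interval of -1.59 to -0.40 and was not called over all genes. Spon2 was chosen by the difference without celecoxib, which this interaction contains, so the interval may overstate it. Within the anti-PD-1 group the 4 tumours labelled R had 35.0 to 58.4 CPM of Spon2 and the 13 labelled NR had 59.6 to 120.4 CPM. This pattern was noticed after the values were seen. How many of all tested genes part the labels in the same way was not counted, so no weight can be put on it. The difference R minus NR of -0.82 did not pass over all genes (edgeR, adjusted p 0.684).

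Foxred2 (chr15:77940522-77956722), a gene for a flavoprotein of the endoplasmic reticulum, was a low transcript. It had 1.41 to 8.64 CPM (median 2.99) in anti-PD-1 and 3.27 to 14.7 CPM (median 8.77) in vehicle tumours, and fell by 1.29 (SE 0.26, adjusted p 0.0128). It was not called without vehicle replicate 6 (adjusted p 0.0701) or without vehicle replicate 7 (0.0828), nor when the 26 libraries were fitted alone (0.0844). Clca3a1 (chr3:144729677-144760977), a member of the calcium-activated chloride channel regulator family, had 36.7 to 73.3 CPM (median 47.7) in anti-PD-1 and 55 to 126.1 CPM (median 83.1) in vehicle tumours. Its -0.72 (SE 0.16, adjusted p 0.0367) was called in 10 of 26 fits that left out 1 library, with an adjusted p of up to 0.229 without vehicle replicate 4, and of 0.0837 with limma-voom. Close relatives of Clca3a1 lie beside it in the genome, and how the authors counted reads shared between them is not stated here.

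**Figure D3:**
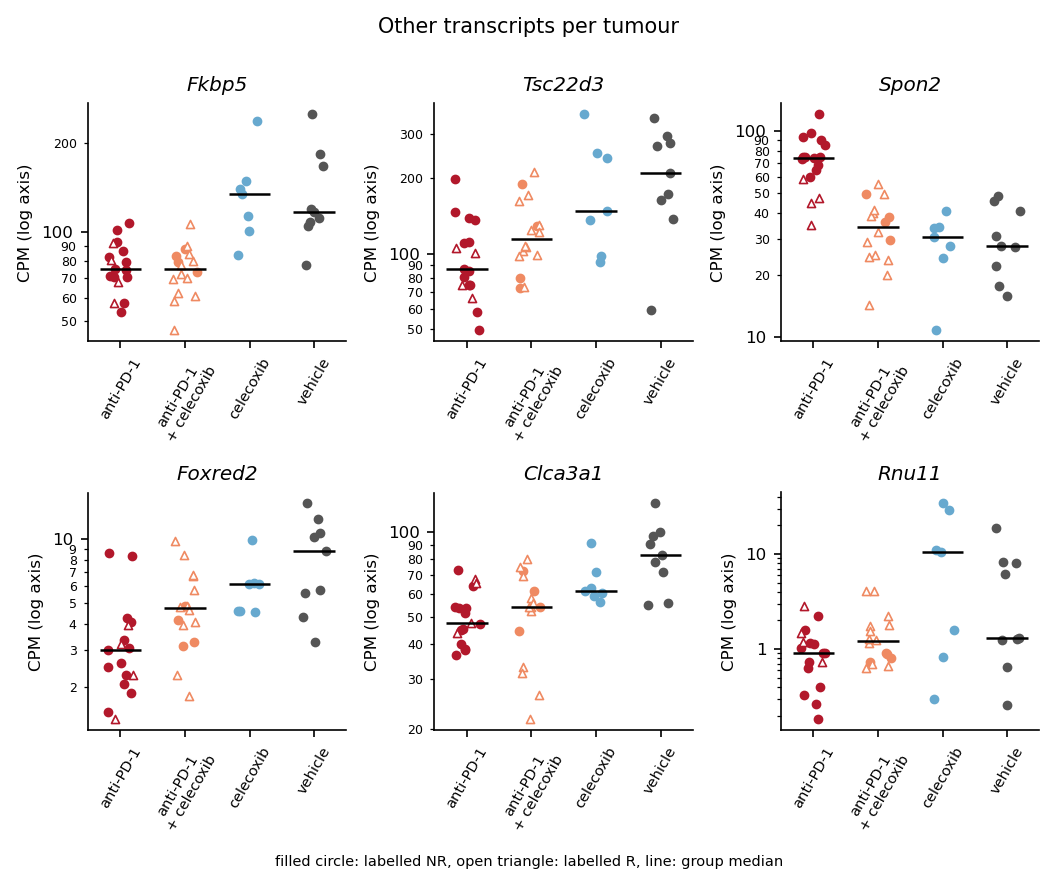
CPM of 5 called genes outside the clock lists and of Rnu11 in every tumour, on log axes, with groups left to right as anti-PD-1, anti-PD-1 plus celecoxib, celecoxib and vehicle. Spon2 is high in the anti-PD-1 group (median 73.5 CPM, vehicle median 27.8 CPM), and Fkbp5 is low in both groups given the antibody.

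Each of the 12 called genes was also compared by an exact two-sided permutation of log2 CPM over all 3124550 splits of the 26 tumours. Dbp, Per3 and Tef gave 3.2e-07, the smallest p this design allows, which follows from their lack of overlap. Tsc22d3 gave the largest of the 12, 0.000535. The genes had been chosen by their difference in these same tumours. Their permutation p-values are not adjusted over all tested genes and are not independent evidence. Overlapping annotation touched some of these genes. Sphk2, on the opposite strand at Dbp, differed by 0.11, and Camta1, on the same strand at Per3, by -0.12, neither with an unadjusted p under 0.05. Car11, a gene for a carbonic anhydrase-related protein, ends 405 bases before Dbp on the same strand. It had 3.44 to 9.01 CPM in anti-PD-1 and 5.19 to 11.5 CPM in vehicle tumours and differed by -0.79 (SE 0.18, adjusted p 0.0553), with 0.07 in the presence of celecoxib.

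Of the other genes next in order of p, the mismatch repair gene Msh6 differed by -0.47 (SE 0.11, adjusted p 0.0701), with all 17 anti-PD-1 tumours below the vehicle median, and by -0.43 in the presence of celecoxib. Btaf1, which removes TATA-binding protein from DNA, differed by 0.40 (SE 0.10, adjusted p 0.0890), with all 17 anti-PD-1 tumours above the vehicle median. The retinol dehydrogenase gene Rdh10 differed by -0.63 (SE 0.17) and Cd209f, a lectin gene of the DC-SIGN family, by 1.30 (SE 0.33). Nrxn3, a neurexin gene, differed by -1.89 (SE 0.47), with 33.7 CPM in vehicle replicate 6, and without that tumour its difference was -0.60. Each of these missed the threshold.

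The receptor that the antibody binds and its ligands did not pass. Pdcd1, for PD-1, measured 0.124 to 27.8 CPM (median 2.10) in anti-PD-1 tumours and 0.660 to 21.8 CPM (median 8.61) in vehicle tumours, a log2 difference of -0.58 (95% interval -2.02 to 0.86). Cd274, for PD-L1, had 5.61 to 72.4 CPM (median 16.2) in anti-PD-1 tumours and 9.88 to 27.5 CPM (median 18.3) in vehicle tumours, a difference of 0.33 (-0.48 to 1.15). Pdcd1lg2, for PD-L2, differed by 0.49 (-0.65 to 1.63). The interval of Cd274 holds a difference of 1 on the log2 scale but not one of -1.

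Transcripts of T cells and of their cytotoxic products overlapped broadly. Cd8a, which encodes a chain of the CD8 co-receptor, ranged from 0.124 to 47.5 CPM (median 1.42) in anti-PD-1 tumours and from 0.550 to 25.1 CPM (median 8.94) in vehicle tumours, with a difference of -0.48 (95% interval -1.98 to 1.01). The protease gene Gzmb had 1.41 to 58.7 CPM (median 10.4) in anti-PD-1 tumours and 3.75 to 29.4 CPM (median 20.1) in vehicle tumours, a difference of 0.12 (-0.95 to 1.196). For the cytokine gene Ifng the values were 0.124 to 29.4 CPM (median 1.77) with anti-PD-1 and 1.25 to 9.59 CPM (median 3.63) with vehicle, a difference of 0.50 (-0.86 to 1.86). The anti-PD-1 group was the larger, at 17 against 9 tumours, and a larger group is likelier to hold the extremes. Replicate 14, labelled R, was its lowest tumour for Cd8a, Ifng and the chemokine gene Cxcl9. For these genes and for Gzmb, the anti-PD-1 group held both the lowest and the highest tumour of the 26.

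Cxcl9, which attracts activated T cells and is induced by interferon-gamma, showed this most plainly, at 18.96 to 1140.0 CPM (median 141.2) in anti-PD-1 and 116.1 to 594.4 CPM (median 386.3) in vehicle tumours. The means were 342.0 ± 343.0 and 341.5 ± 148.1 CPM (SD, n = 17 and 9), and the difference was 0.00 (-1.01 to 1.01). The SD of Cxcl9 in log2 CPM was 1.74 over anti-PD-1 and 0.722 over vehicle tumours, that of Ifng 1.91 and 1.002, and that of Cd274 1.08 and 0.497. Of the anti-PD-1 tumours 7 lay below the lowest and 5 above the highest vehicle tumour for Cxcl9. Cd4 differed by 0.14, Foxp3, the regulatory T cell factor, by 0.26, Prf1, for perforin, by -0.02, Cd3e by -0.43, Ptgs2, for COX-2, by 0.13 and Arg1 by -0.03, none called.

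**Figure D4:**
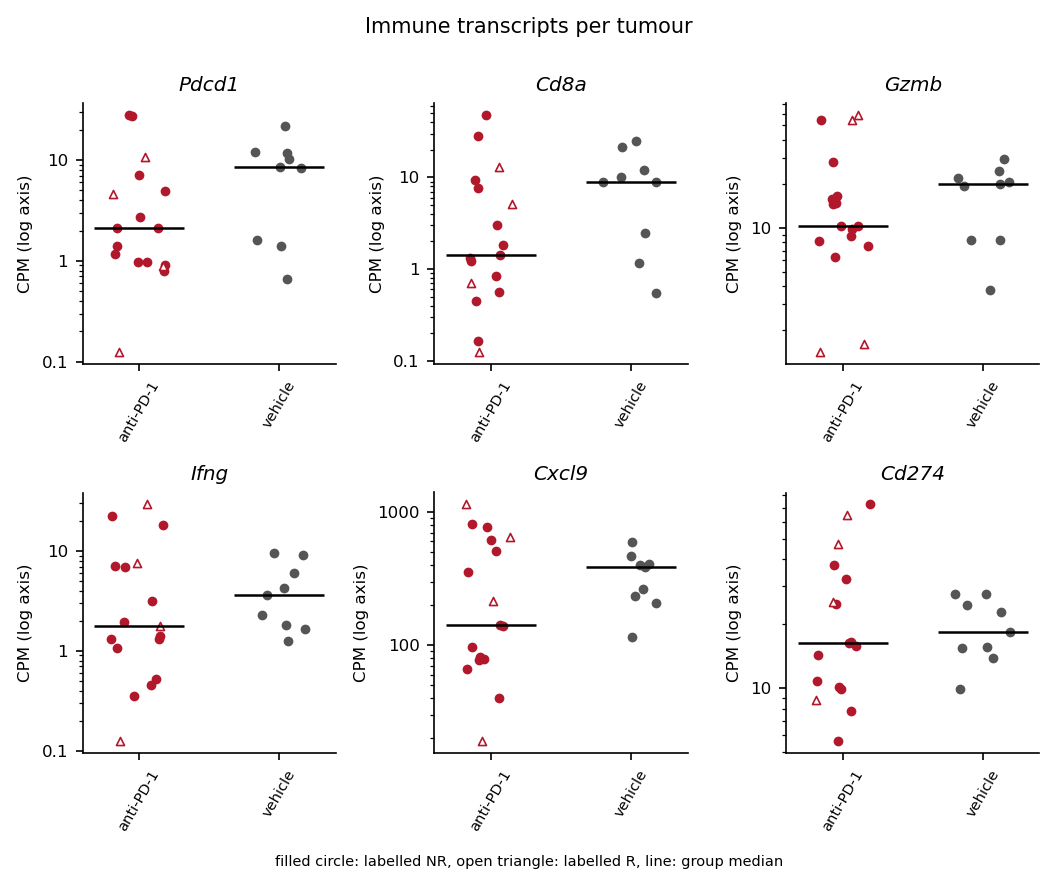
CPM of 6 immune transcripts in every anti-PD-1 tumour (left) and every vehicle tumour (right), on log axes, with triangles for tumours labelled R and lines at the medians. The anti-PD-1 tumours, 17 against 9, span a wider range than the vehicle tumours, for Cxcl9 from 18.96 to 1140.0 CPM with anti-PD-1 against 116.1 to 594.4 CPM with vehicle.

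The lists of immune cells and programmes held 0 called genes. All 20 T cell receptor complex genes were tested, with 4 positive and a median of -0.20, and the list median moved between -0.49 without anti-PD-1 replicate 2 and 0.10 without vehicle replicate 5. Cytotoxic effectors (15 of 18 tested) had a median of 0.00, regulatory T cells (12 of 13) 0.05, NK cells (10 of 13) -0.09, macrophages (18 of 18) 0.14 and conventional dendritic cells (12 of 12) 0.08. None of these medians kept its sign when each library was left out in turn. They ranged from -0.20 to 0.17 for cytotoxic effectors, -0.07 to 0.11 for regulatory T cells, -0.34 to 0.07 for NK cells, -0.03 to 0.24 for macrophages and -0.07 to 0.24 for dendritic cells, and the lowest value of each came without anti-PD-1 replicate 2. With limma-voom the medians were -0.40 for cytotoxic effectors and -0.53 for NK cells. The interferon-gamma response list had a median of 0.05 with 23 of 33 members positive. That median ranged from -0.09 without anti-PD-1 replicate 17 to 0.13 without vehicle replicate 5, and was -0.14 with limma-voom. It was 0.50 for the R tumours and -0.07 for the NR tumours, each against vehicle. The type I interferon list was positive in 27 of 29 members with a median of 0.21, led by the antiviral gene Rsad2 at 0.57 (SE 0.21, not called), and its median was 0.09 without vehicle replicate 8 and 0.10 without anti-PD-1 replicate 17. Among 19 tested NF-kB targets 16 were positive, with Nfkb2 at 0.34 and Bcl3 at 0.65, neither called, and the median of 0.20 became 0.11 without vehicle replicate 2.

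Vessel transcripts were mostly positive, without a call. In the endothelium list 21 of 22 tested members were positive with a median of 0.45, among them Robo4 at 0.66, Egfl7 at 0.57 and Plvap at 0.52, genes of vessel guidance, growth and fenestration. In the pericytes list 10 of 11 were positive with a median of 0.53, and Foxs1, a mural cell transcription factor, had 3.22 to 15.6 CPM in anti-PD-1 and 1.81 to 7.75 CPM in vehicle tumours (0.93, SE 0.26, adjusted p 0.382). The potassium channel subunit gene Abcc9 differed by 1.08 and Rgs5 by 0.89, both pericyte markers. Over leave-one-out fits the median ranged from 0.34 to 0.54 for endothelium and from 0.37 to 0.74 for pericytes. Vehicle replicate 8 held the lowest mean of either list, 2.66 log2 CPM for endothelium and 1.44 for pericytes.

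Matrix genes other than Spon2 stayed below the threshold. Of 21 in the list 20 were tested and the median was 0.12. The stromelysin gene Mmp3 had 7.56 to 24.5 CPM in anti-PD-1 and 3.00 to 14.2 CPM in vehicle tumours (0.71, SE 0.23, adjusted p 0.796), and the proteoglycan-cutting Adamts4 differed by 0.50. Fibroblast markers were positive in 23 of 25 with a median of 0.15, which was 0.25 without vehicle replicate 1 and 0.24 without vehicle replicate 6.

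**Figure D5:**
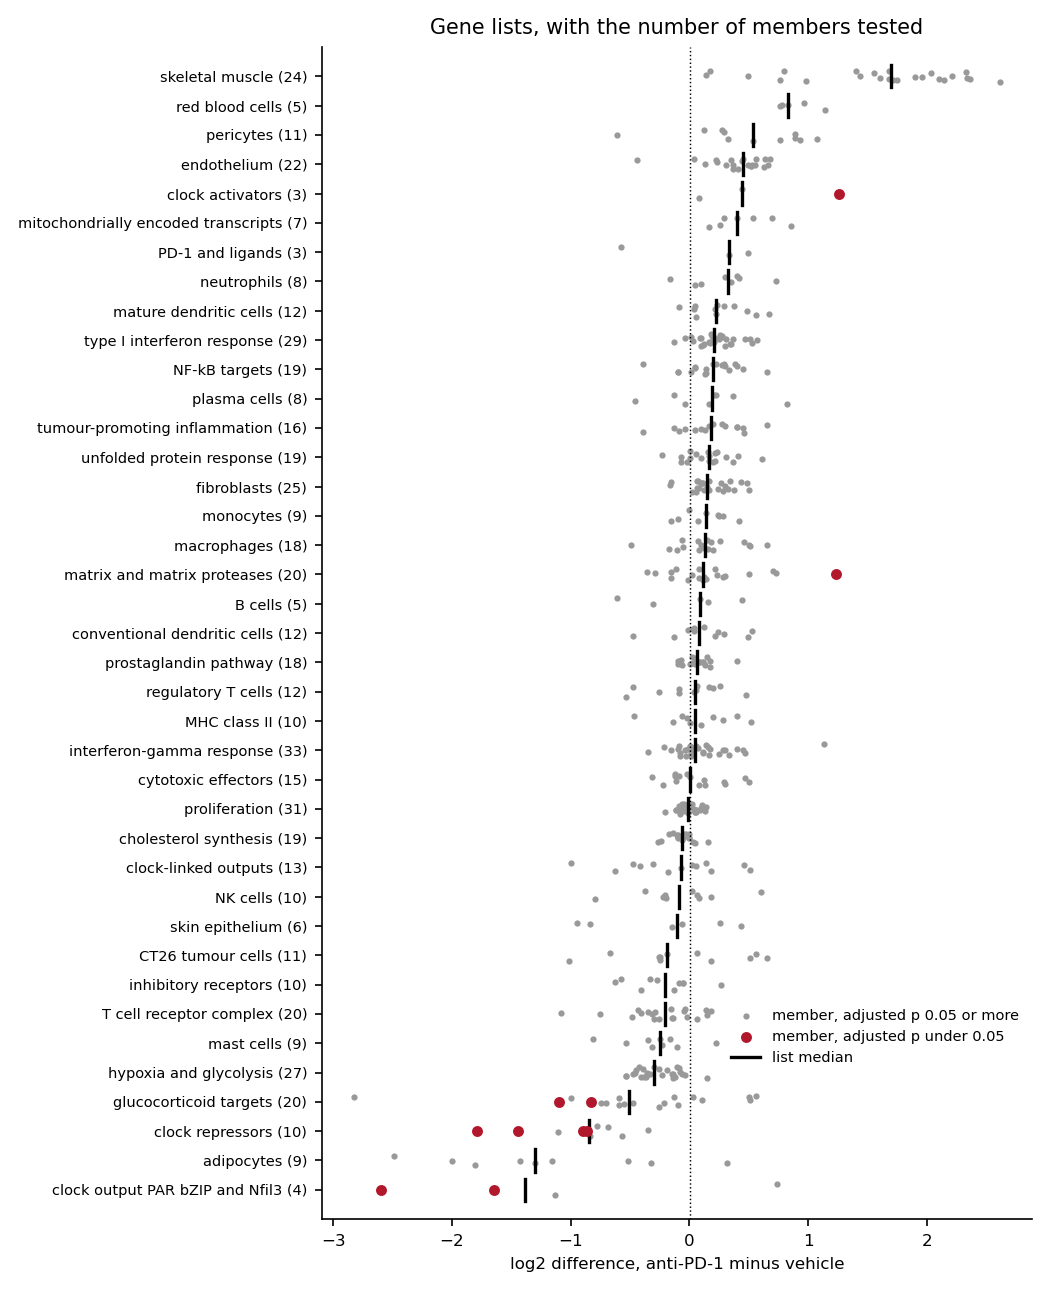
Log2 differences, anti-PD-1 minus vehicle, of the tested members of each gene list, with the number tested in brackets; red points passed the adjusted threshold, black bars are list medians, and the dotted line is the median of all genes, 0.01. Calls fall in the clock, glucocorticoid and matrix lists, and the hypoxia and glycolysis median is -0.30.

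Several list medians depended on single libraries. Hypoxia and glycolysis had 26 of 27 members negative and a median of -0.30, which was 0.21 without vehicle replicate 8 and -0.50 without anti-PD-1 replicate 14. Those tumours had the highest means of the list in their groups, 7.84 log2 CPM in anti-PD-1 replicate 14 and 7.999 in vehicle replicate 8. The adipocyte median of -1.30 over 9 of 14 genes became 1.41 without vehicle replicate 6, whose list mean of 6.97 log2 CPM compares with 2.49 in the vehicle tumour after it. All 24 skeletal muscle genes were positive with a median of 1.70, and the median was -0.80 without the libraries with other tissue. Anti-PD-1 replicates 3, 9, 14, 15 and 16 were set aside for a high mean of this same list, and no vehicle tumour was. The choice itself therefore lowers that median. The mean of the muscle list ran from -0.64 to 4.39 log2 CPM in anti-PD-1 and from -0.52 to 2.56 in vehicle tumours; Myh1 was at 0 in 6 anti-PD-1 and 3 vehicle tumours and Actn3 in 5 and 3. A fit with the muscle list as a covariate uses the mean of the muscle genes, so their own median of 0.03 follows from it. With that covariate the median was 0.38 for pericytes and 0.41 for endothelium, and -0.55 in place of -0.11 for skin epithelium. The calls were then 16 in place of 12.

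Mitochondrially encoded transcripts were positive in 7 of 7 tested members with a median of 0.40, with mt-Nd2 at 0.70 (SE 0.30) and mt-Nd5 at 0.53 (SE 0.20), subunits of respiratory complex I, neither called. Red blood cell transcripts were positive in 5 of 5 with a median of 0.83. That median was 1.10 for the NR tumours and -0.10 for the R tumours, each against vehicle. The unfolded protein response list had 15 of 19 positive and a median of 0.17 (0.10 to 0.24 over leave-one-out fits), with the chaperone gene Hspa5 at 0.31 and all 17 anti-PD-1 tumours above the vehicle median for it. Proliferation genes (31 of 31 tested, median -0.01), cholesterol synthesis (19 of 20, -0.07) and the prostaglandin pathway (18 of 20, 0.07) lay near the median of all genes.

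The 4 anti-PD-1 tumours labelled R and the 13 labelled NR were each set against the 9 vehicle tumours, which both comparisons share. NR minus vehicle called 10 genes (2 higher, 8 lower), and R minus vehicle called 0, with 634 genes at an unadjusted p under 0.05 and 4 tumours in the group. For Dbp the differences were -1.98 for R and -2.84 for NR, for Per2 -1.67 and -1.83, for Arntl 1.27 and 1.26, and for Fkbp5 -0.90 and -0.80. With edgeR, 0 of 14247 genes were called for R minus NR (923 with a p under 0.05 before adjustment), and 0 with DESeq2, limma-voom, RLE normalization or no filter on low counts.

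Some clock repressors were high in 2 of the 4 R tumours, anti-PD-1 replicates 12 and 14, and not in the other 2, replicates 15 and 17. Nr1d1 measured 61.86 and 67.65 CPM in replicates 12 and 14 and 17.42 and 17.01 CPM in replicates 15 and 17, where the NR tumours averaged 17.9 CPM (R minus NR 1.17, unadjusted p 0.000583, adjusted p 0.653). Ciart had 13.61 and 37.67 CPM in replicates 12 and 14 and 3.11 and 1.46 CPM in replicates 15 and 17, with an NR mean of 4.28 CPM. Bhlhe40 had 137.0 and 269.6 CPM in replicates 12 and 14 and 33.2 and 20.6 CPM in replicates 15 and 17, with an NR mean of 35.9 CPM, and neither gene was called. For all 3 genes replicates 15 and 17 thus lay below the NR mean. Replicates 14 and 12 were also the highest and second highest anti-PD-1 tumours for Dbp, Clock, Nfil3 and the glycolysis genes Tpi1 and Gpi1. Vehicle replicate 8, labelled NR, was the highest vehicle tumour for the same 3 repressors, at 93.55 CPM of Nr1d1, 36.39 of Ciart and 240.6 of Bhlhe40. The pattern is thus confined neither to repressors nor to the R label. Set against vehicle, the R tumours gave 0.13 for Nr1d1, 0.30 for Ciart and 0.73 for Bhlhe40, values that rest on replicates 12 and 14 and are opposite in sign to those of the NR tumours. Bhlhe40 also gave 0.19 over all anti-PD-1 tumours without vehicle replicate 8.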

How the data were processed

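Whole-tumour RNA went into QuantSeq 3′ FWD libraries, per the labels' protocols. The authors deposited a table of raw counts for 39179 Ensembl genes. They also deposited log2 CPM values (unit: log2) for 16559 genes, which were not used in tests. The submitters' processing notes name the tools bcl2fastq, STAR, featureCounts and limma and the builds mm10 and GRCm38. Not given in the sources used here are versions, annotation release, strand setting and the handling of multiply aligned reads. Symbols and coordinates came from a GRCm38 annotation and matched 37693 IDs.

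Groups came from the labels, and replicate numbers only name the tumours. The counts of all 49 libraries (4251251 to 13671294 in total) were fitted in 1 model of the 4 treatments with edgeR 4.0.16 in R 4.3.3, using TMM, filterByExpr, a robust quasi-likelihood fit and an adjusted p (Benjamini-Hochberg) under 0.05. Response labels were compared in a model of 6 groups (14247 genes). Per-tumour values are CPM, or log2 CPM with a prior count of 2. Intervals are 95% confidence intervals of the difference between groups, not ranges of tumours. Their SE was worked back from the log2 difference and its test statistic. Correlations and exact permutations used Python 3.11.15, numpy 2.4.6 and scipy 1.17.1, with 100000 resamples for correlations. The most alike libraries correlated at r 0.983 but differed by a chi-square per gene of 16.95, and no library was a copy. On simulated data with 13726 genes edgeR found 75% of the genes given a change of 1 on the log2 scale and 94% of those given 2, and called 6 others.

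The members and the 40 gene lists were chosen with earlier results of these tumours known. The rule names every called gene, a panel of 31 genes, the 3 members of each list with the smallest p and the 12 not-called genes with the smallest p whose mean reaches 2 CPM, without predicted genes and receptor segments. The 5 genes most and least correlated with Dbp are named as well. Genes of the lists beyond these are named only where stated or to round out a list. Alternatives were DESeq2 1.42.0, limma-voom (limma 3.58.1), RLE normalization, no filter and fits of the 26 libraries alone. Further fits left out libraries with other tissue (list means above 3 log2 CPM for muscle, or above 5 for skin or adipocytes) or each library in turn. Others took the muscle list or the first number of the sample title as covariate, or R or NR tumours alone. The second number of the title runs in blocks by treatment. It cannot be told apart from treatment and was not used, so order by that number remains confounded with the groups. List medians without each library and the correlations within 17 tumours were added after the data were seen.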

Additional observations from a re-analysis of the deposited data

Results flagged for a closer look

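For the 12 called genes and the panel, 68 groups of 7 or 9 tumours were searched for a tumour standing apart by Dixon's criterion, and 5 did; chance alone marks about 1 in 20 groups. Vehicle replicate 8 stood apart for Dbp, with 7.75 log2 CPM where the vehicle tumour after it had 6.867, and for Ptgs2, with 5.929 and 4.056 in the one after it. Without that tumour the log2 difference between anti-PD-1 and vehicle was -2.37 for Dbp, in place of -2.60, and 0.70 for Ptgs2, in place of 0.13. In the celecoxib group, replicate 4 was low for Tef (6.633, next 6.985), replicate 3 low for Spon2 (3.467, next 4.606) and replicate 2 high for Foxred2 (3.346, next 2.696). These 3 tumours enter the combination minus celecoxib values directly. They enter anti-PD-1 minus vehicle only through the normalization and spread shared in the fit of all libraries.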

How the results depend on the processing

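No paired analysis was possible because the replicate numbers only name tumours within a group and the labels tie no anti-PD-1 tumour to a vehicle tumour. The 12 calls became 22 with DESeq2 (4 higher, 18 lower), 24 without a filter on low counts (2 higher, 22 lower) and 0 with the R tumours alone, and 8 to 17 without 1 library, 8 without vehicle replicate 6 and 17 without vehicle replicate 2. The 8 genes called in all 26 leave-one-out fits were Dbp, Tef, Per2, Per3, Nr1d2, Arntl, Spon2 and Fkbp5. Of the 12 called genes, limma-voom lost Tsc22d3 and Clca3a1, the 26 libraries alone lost Cry2 and Foxred2, the libraries without other tissue lost Tsc22d3, and the NR tumours alone lost Tsc22d3, Foxred2 and Clca3a1. The interaction called 2 genes with DESeq2 and 1 with limma-voom. R minus NR called 0 without any one of the 4 R tumours. The called genes kept their direction under each alternative; the signs that turned were those of immune genes and of 3 repressors that were not called. With limma-voom Cd274 was -0.057, Cd4 -0.0895, Gzmb -0.24, Ifng -0.51, Cxcl9 -0.71 and Ptgs2 -0.038. Without libraries with other tissue Gzmb was -0.0022, Prf1 0.37 and Ptgs2 -0.23, and with the muscle covariate Prf1 was 0.012 and Ptgs2 -0.22. With NR tumours only Gzmb was -0.15, Prf1 0.0042, Cxcl9 -0.23 and Ptgs2 -0.34, and with R tumours only Cd4 was -0.11, Arg1 0.39, Nr1d1 0.13, Ciart 0.30 and Bhlhe40 0.73. Cxcl9 was -0.0055 without a filter and -0.0018 with the first title number as covariate, where Arg1 was 0.047. Leave-one-out values ran from -0.15 to 0.15 for Arg1, -0.74 to 0.19 for Bhlhe40, -0.11 to 0.32 for Cd4, -0.23 to 0.14 for Cxcl9, -0.079 to 0.26 for Gzmb, -0.44 to 0.24 for Prf1 and -0.10 to 0.70 for Ptgs2. The cause of these turns was not tested. With 9 vehicle tumours and wide immune spread, the 95% intervals of Cd8a, Ifng and Gzmb cover differences of about 1 log2 unit in either direction.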

Other observations

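Rnu11, a small nuclear RNA of the minor spliceosome, missed the threshold between anti-PD-1 and vehicle (-2.30, SE 0.52, adjusted p 0.0553) and was lower in combination than in celecoxib tumours (-3.01, adjusted p 0.00824, edgeR). No anti-PD-1 tumour exceeded 2.83 CPM. That level was exceeded by 2 of 16 combination tumours, the highest at 4.06 CPM, by 4 of 7 celecoxib tumours, up to 34.2 CPM, and by 4 of 9 vehicle tumours, up to 18.6 CPM. The other vehicle tumours lay between 0.257 and 1.31 CPM, so the vehicle group was split rather than shifted. Rnu12, another RNA of that spliceosome, chosen after its values were seen, was at most 0.819 CPM in anti-PD-1 tumours, and 1 of 16 combination, 5 of 7 celecoxib and 3 of 9 vehicle tumours exceeded that. Vegfd, a lymphatic growth factor gene also picked after its values were seen, differed by -0.47 between anti-PD-1 and vehicle (SE 0.13, adjusted p 0.264), with all 17 anti-PD-1 tumours below the vehicle median, and by -0.46 between combination and celecoxib.

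Genes marking the carcinoma itself varied too. Krt20, a keratin of differentiated intestinal epithelium, had 17.04 to 118.1 CPM in anti-PD-1 and 30.95 to 181.3 CPM in vehicle tumours (-1.02, SE 0.33, adjusted p 0.778). Ereg, an EGF receptor ligand gene, had 30.5 to 78.3 CPM in anti-PD-1 and 22.5 to 40.8 CPM in vehicle tumours (0.51, SE 0.17, adjusted p 0.813), with 16 of 17 anti-PD-1 tumours above the vehicle median. Socs2, an inhibitor of cytokine signalling counted in the mature dendritic cell list, differed by 0.49 (SE 0.15, adjusted p 0.663) with 16 of 17 anti-PD-1 tumours above the vehicle median, and F13a1, a monocyte and macrophage transglutaminase gene, by 0.42 (SE 0.17, adjusted p 0.9998), also with 16 of 17.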
